A study of Homo sapiens with 4 samples.

Results

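The genes described here are the Notch receptors NOTCH1, NOTCH2 and NOTCH3, the Notch ligands JAG1, JAG2, DLL1 and DLL3, and the basic helix-loop-helix genes HES1, HES6 and HEY1. They were chosen by name, as every probe set (a group of short probes on the array that reports 1 value) that the platform annotation assigns to 1 of these 10 symbols. This gave 28 of 54613 probe sets tested and 10 of 19775 genes, with no filter on low signal. One further probe set, 227067_x_at, is assigned to NOTCH2 together with NOTCH2-derived NOTCH2NL genes, 5 genes in all, and is reported under NOTCH2 as uncertain.

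Expression was measured in SH-SY5Y, a human neuroblastoma line of sympathetic neuroblast character, on 3' oligonucleotide arrays, 1 array per sample. In the knockdown group (2 samples), small interfering RNA against TSPAN8, the gene of a cell-surface tetraspanin, was delivered with the Accell self-delivering system. The transfection control group (2 samples) was kept for the same 72 h; the labels do not say what these cells received, or whether samples of a group were separate cultures. P-values therefore measure only the spread between samples that may be technical repeats. In such bulk RNA fewer cells of a type and less RNA per cell cannot be told apart.

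Notch is a signalling route between touching cells. Ligands of the Jagged and Delta-like families on the surface of a cell bind Notch receptors on its neighbour. The receptor is then cut by an ADAM metalloprotease and by gamma-secretase, and its freed intracellular domain enters the nucleus, where with the DNA-binding protein RBPJ and a Mastermind co-activator it switches on genes of the HES and HEY families. HES1 and HEY1 encode repressors that hold back proneural genes, whereas HES6 is known as an antagonist of HES1 that favours neuronal differentiation. In neuroblastoma, Notch activity has been linked to the mesenchymal cell state.

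Silencing was seen in the targeted gene: TSPAN8 read 6.25 and 6.35 on the log2 scale in knockdown cells and 7.52 and 7.62 in control cells, a difference of -1.27 ± 0.062 (SE, n = 2 per group; limma, adjusted p = 0.00263). It was the only probe set of all to pass the threshold of an adjusted p under 0.05 (0.00183% of probe sets). The array medians lay between 6.58 and 6.61. Of 11 measured neuroblast markers, 10 were above the array median on all 4 arrays and TH, tyrosine hydroxylase, was below it on all; 9 of the 11 stood below control, at a mean of 11.00 and 11.07 on the knockdown arrays against 11.13 and 11.14. Of 14 mesenchymal or fibroblast markers, 13 stood above control, and their mean log2 level was 9.50 and 9.23 on knockdown replicates 1 and 2 against 9.19 and 9.12 on the control arrays; PRRX1 and CCN2 lay below the median on every array. Schwann or glial markers (5 of 6 above control, mean 6.76 and 6.73 against 6.70 and 6.67) and endothelial markers (3 of 5, mean 6.26 and 6.30 against 6.25 and 6.26) were closer to control, with ERBB3, FOXD3, FABP7, CDH5, KDR and TEK below the median throughout. All 10 stress response markers stood below control, at a mean of 10.80 and 11.15 on knockdown replicates 1 and 2 against 11.05 and 11.35. Over all 19775 genes, 8768 stood above control and 10959 below, each gene at its brightest probe set.

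Of the 28 Notch probe sets, 0 passed over all probe sets (limma, smallest adjusted p = 0.603), whereas 6 had an unadjusted p under 0.05, beside 7.83% of all probe sets. All 6 stood above control (3.72% of all probe sets met that rule above and 4.12% below control) and they belong to 3 genes, the ligand gene JAG1 (3 probe sets), HES1 (2) and HEY1 (1). Probe sets of a gene share its transcripts and are not independent. Counted by gene, with the brightest probe set representing each, 0 of 10 genes passed over all probe sets (0.00506% of all genes did) and 3 of 10 had an unadjusted p under 0.05, beside 7.96% of all genes and 2.39% in this direction. The other 7 genes had 17 probe sets, 7 above and 10 below control, with differences from -0.099 to 0.037 and none at an unadjusted p under 0.05. The median difference over the 28 probe sets was 0.0092, and it was 0 over all probe sets. The groups' arrays did not overlap for 11 of the 28, beside 37.5% of all probe sets, 7 with knockdown above (17.7%) and 4 with knockdown below (19.8%). By gene it was 5 of 10, beside 38.5% of all genes: JAG1, HES1 and HEY1 with knockdown above (14.3%), and DLL3 and HES6 with knockdown below (24.2%).

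**Figure D1:**
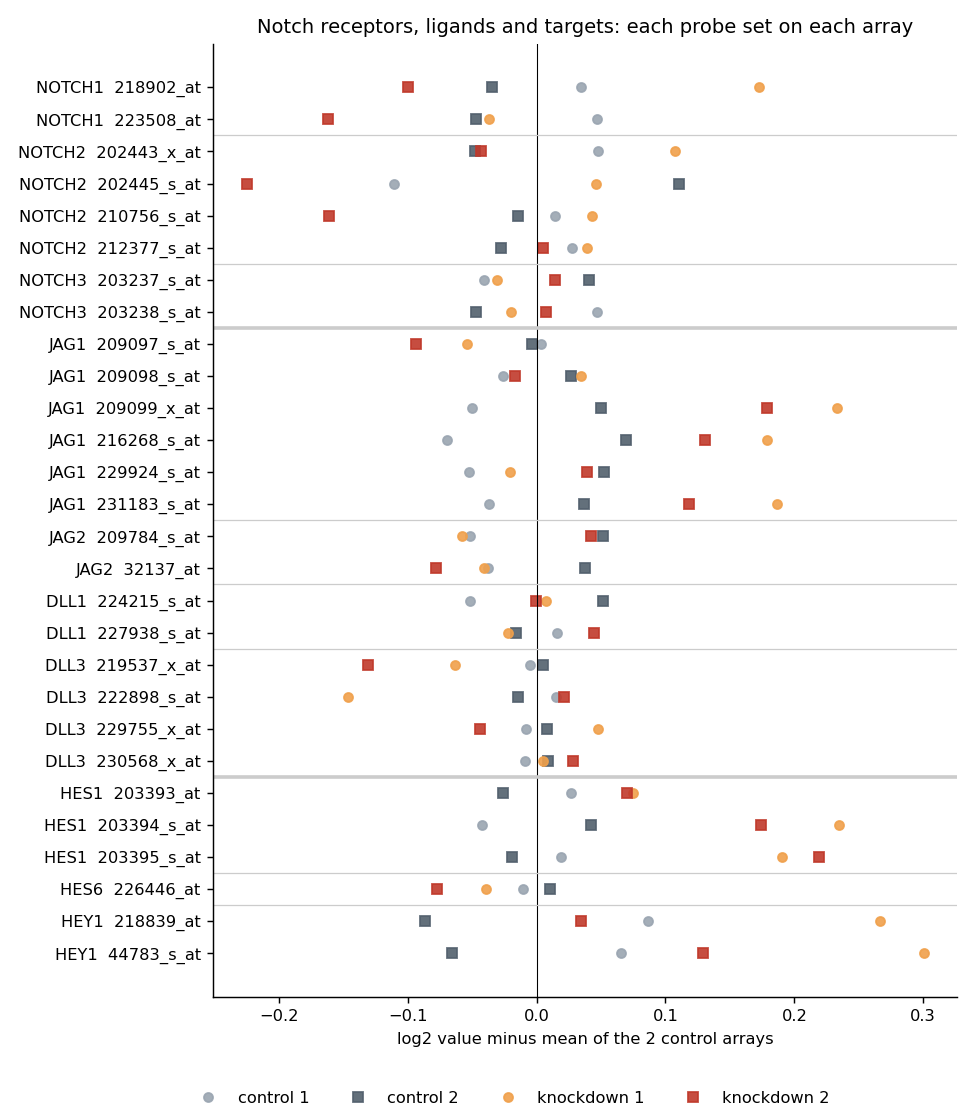
Log2 value of each of the 28 probe sets (rows, with thick lines between receptors, ligands and targets) on each of the 4 arrays, minus the mean of the 2 control arrays (x axis). Knockdown arrays lie to the right of both control arrays for JAG1 209099_x_at, 216268_s_at and 231183_s_at, for all 3 HES1 probe sets and for HEY1 44783_s_at, with values from 0.070 to 0.30, and mix with the control arrays for the receptors.

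Among the receptors, none of 8 probe sets had an unadjusted p under 0.05 and none separated the groups. NOTCH1, a receptor with roles in neural progenitors, read 7.17 and 6.90 in knockdown and 7.03 and 6.96 in control cells at its brighter probe set 218902_at. The knockdown arrays thus lay on either side of the control arrays, and the difference was 0.037 ± 0.087 (SE; 95% confidence interval -0.17 to 0.24). Its second probe set, 223508_at, was below the array median on every array and differed by -0.099. With knockdown replicate 1 left out the brighter probe set turned to -0.10, and with knockdown replicate 2 left out it was at 0.17.

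NOTCH2, the receptor with the most probe sets here, read 10.52 and 10.37 in knockdown and 10.46 and 10.36 in control cells at 202443_x_at. The groups overlapped, with a difference of 0.032 ± 0.068 (SE; 95% confidence interval -0.12 to 0.19). Its other probe sets differed by -0.089 (202445_s_at), -0.059 (210756_s_at) and 0.022 (212377_s_at), so they disagreed in sign. The NOTCH2NL copies are near-identical to the start of NOTCH2, and the probe set assigned to all of them, 227067_x_at, differed by 0.034. NOTCH3, a receptor known from the mesenchymal state of neuroblastoma, read 7.05 and 7.09 in knockdown and 7.03 and 7.12 in control cells at 203237_s_at, again with overlap. Its difference was -0.0082 ± 0.056 (SE; 95% confidence interval -0.14 to 0.12), and 203238_s_at differed by -0.0061. The intervals of the receptors' brightest probe sets thus reach no further than 0.24 above and -0.17 below control. Dimmer probe sets reach further below, to -0.25 at NOTCH1 223508_at and -0.33 at NOTCH2 202445_s_at.

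JAG1, a Jagged ligand, had the largest differences among the ligands. At 209099_x_at it read 8.29 and 8.23 in knockdown and 8.00 and 8.10 in control cells, and at 216268_s_at 8.21 and 8.17 against 7.97 and 8.11. At 231183_s_at, a dimmer probe set below the array median on all arrays, it read 6.53 and 6.46 against 6.30 and 6.38. On each of these the lower knockdown array was above the higher control array. The differences were 0.21 ± 0.058, 0.15 ± 0.063 and 0.15 ± 0.057 (SE), with limma adjusted p of 0.603, 0.631 and 0.615, so that none passed. The other 3 JAG1 probe sets did not share this: 209098_s_at differed by 0.0088, 229924_s_at by 0.0096 and 209097_s_at by -0.074, the first and the last below the median on every array. Without control replicate 1, the lower control array on all 3 of the higher-reading probe sets, 216268_s_at was at 0.085 and 209099_x_at at 0.16.

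JAG2, the second Jagged ligand, read 6.75 and 6.85 in knockdown and 6.76 and 6.86 in control cells at 209784_s_at, values that overlap almost array by array. Its difference was -0.0079 ± 0.062 (SE; 95% confidence interval -0.15 to 0.14), and 32137_at differed by -0.059. DLL1, a Delta-like ligand of neurogenesis, was dim, with both probe sets below the median on every array. It read 6.32 and 6.32 against 6.27 and 6.37 at 224215_s_at, a difference of 0.0037 ± 0.057 (SE) that changes sign when each array is centred on its median. DLL3, a Delta-like protein known to act inside the cell on Notch signalling and found in neuroendocrine tumours, read 8.63 and 8.56 in knockdown and 8.69 and 8.70 in control cells at 219537_x_at. Both knockdown arrays lay below both control arrays there, by -0.097 ± 0.053 (SE; 95% confidence interval -0.22 to 0.027; limma adjusted p = 0.695). Its other 3 probe sets differed by -0.063, 0.0020 and 0.017.

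HES1, the best known direct target of Notch, had all 3 probe sets above control without overlap. At 203394_s_at it read 6.84 and 6.78 in knockdown and 6.56 and 6.65 in control cells, and at 203395_s_at 6.59 and 6.62 against 6.42 and 6.38. The spread within a group was small beside the gap between groups on the latter. The differences were 0.20 ± 0.057 and 0.20 ± 0.052 (SE), a ratio of 1.15 for each, with a limma adjusted p of 0.603 for both. The remaining probe set, 203393_at, lay below the median on every array and differed by 0.072 ± 0.052 (SE; 95% confidence interval -0.048 to 0.19). With any single array left out, 203394_s_at ranged from 0.16 to 0.25 and 203395_s_at from 0.19 to 0.22. The HES1 values are near the array median, where summarised log2 values can compress changes, which was not measured here.

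The stretch before the HES1 start site is shown because it is the classic RBPJ-bound promoter of the pathway and HES1 had the smallest p among the 10 genes. Of the 10 genes, 7 had an entry in the RefSeq promoter table (GRCh38.p14); DLL1, DLL3 and HEY1 had none. The 250 bases before the start, at chr3:194135898-194136147 on the plus strand, read 5' to 3' as follows, with capitals on TGGGAA, the core of the RBPJ motif:
HES1: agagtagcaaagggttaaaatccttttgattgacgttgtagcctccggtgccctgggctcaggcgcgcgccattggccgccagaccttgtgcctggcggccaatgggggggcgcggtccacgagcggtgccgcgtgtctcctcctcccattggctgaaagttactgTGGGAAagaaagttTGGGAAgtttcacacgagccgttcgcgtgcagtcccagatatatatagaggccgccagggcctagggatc
TGGGAA was searched on both strands and was found in 2 places, 84 to 79 and 70 to 65 bases before the start. Of 35116 promoter windows of this length, 20.8% hold it at least once and 2.9% hold it 2 or more times. The N-box letters CACNAG, a motif of HES repressors, occur 3 times in the HES1 window (32% of windows hold them at least once) and do not overlap TGGGAA. The windows of JAG1, JAG2, NOTCH1, NOTCH2, NOTCH3 and HES6 held no TGGGAA, and CACNAG occurred in these only before NOTCH3, 1 time. The E-box CACGTG (6.34% of windows) was in none of the 7. These are letter matches and no binding was measured.

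HEY1, a HES-related repressor, read 10.94 and 10.77 in knockdown and 10.71 and 10.58 in control cells at 44783_s_at. The groups did not overlap, though knockdown replicate 2 was only just above control replicate 1. The difference was 0.21 ± 0.074 (SE; 95% confidence interval 0.043 to 0.39; limma adjusted p = 0.609). Its other probe set, 218839_at, read 10.25 and 10.02 against 10.07 and 9.90, with overlap, and differed by 0.15 ± 0.089 (SE; 95% confidence interval -0.055 to 0.36). Leaving out knockdown replicate 1 took that probe set to 0.035, and leaving out control replicate 2 to 0.064. Knockdown replicate 1 was the higher array: against the control mean, 44783_s_at stood at 0.30 on that array and at 0.13 on the other. With knockdown replicate 2 left out, HEY1 was the only Notch member past the threshold, at 0.30 (limma, adjusted p = 0.0355), in a fit where the lone array is assumed to vary like the control group and 1026 probe sets passed. Without knockdown replicate 1 it was at 0.13 (limma adjusted p = 0.714).

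HES6 is represented by 226446_at alone and read 9.38 and 9.34 in knockdown and 9.41 and 9.43 in control cells. Knockdown arrays were below control arrays by a small margin, -0.058 ± 0.052 (SE; 95% confidence interval -0.18 to 0.061; limma adjusted p = 0.828). Its interval overlaps those of HEY1 44783_s_at, which starts at 0.043, and HES1 203393_at, which starts at -0.048. It ends below that of HES1 203394_s_at, which starts at 0.072. The difference between these genes was not tested.

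**Figure D2:**
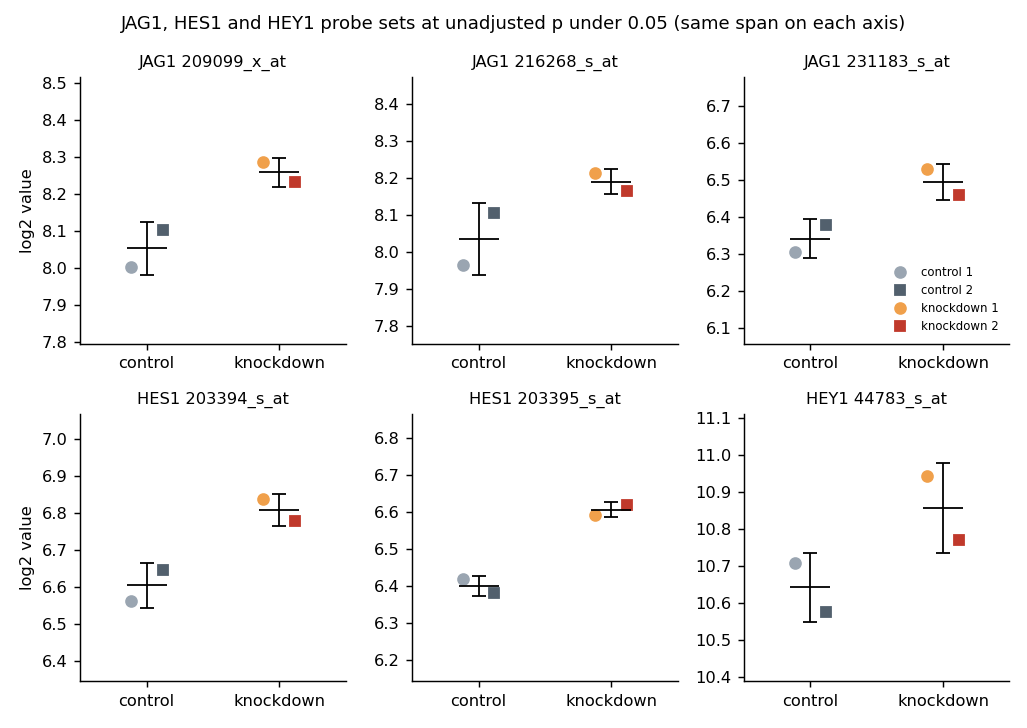
Log2 values (y axis, each panel spanning the same range) of the 6 probe sets at an unadjusted p under 0.05, with circles for replicate 1, squares for replicate 2, and bars for the mean ± SD (n = 2). Every knockdown point is above every control point in each panel, and the gap is narrowest for HEY1 (10.77 against 10.71) and for JAG1 216268_s_at (8.17 against 8.11). The panels were picked by p, so this separation adds no support.

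The differences of JAG1 209099_x_at and HES1 203394_s_at, the brightest probe sets of these genes, were present on both knockdown arrays. Of 6 JAG1 probe sets, 3 stood above control without overlap. Against the control mean, JAG1 209099_x_at stood at 0.23 and 0.18 on knockdown replicates 1 and 2, and HES1 203394_s_at at 0.23 and 0.17. The mesenchymal marker list had medians of 0.32 and 0.064 on the same arrays, and the stress list -0.41 and -0.087. HEY1 44783_s_at, at 0.30 and 0.13, was further from the control mean on knockdown replicate 1. These contrasts depend on the reference, because the control arrays also differ. Between arrays of equal number, which the labels do not pair, HEY1 stood at 0.23 and 0.19. JAG1 then stood at 0.28 and 0.13, and HES1 at 0.28 and 0.13. The stress list mean was 10.80 against 11.05 and 11.15 against 11.35, and the mesenchymal mean 9.50 against 9.19 and 9.23 against 9.12. The part of the neuroblast, mesenchymal, glial and stress markers in these results was not tested.

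By the profile over the 4 arrays, after subtraction of each gene's mean, the genes nearest to HES1 203394_s_at among 19774 others were JAG1 (root mean square difference 0.0056 log2), DCLK1, a doublecortin-like kinase (0.0085), and PDZRN3, a ubiquitin ligase (0.013). JAG1, at its brightest probe set, was thus the nearest of all genes in this profile. HEY1 ranked 2622 by the same measure. From the second HES1 probe set, 203395_s_at, JAG1 ranked 487 and HEY1 1870, and from the dim 203393_at they ranked 14827 and 16207. From JAG1 231183_s_at and 216268_s_at, HES1 ranked 100 and 108. From JAG1 209097_s_at, 209098_s_at and 229924_s_at it ranked 19346, 17692 and 17653, so the closeness belongs to particular probe sets. These ranks describe 4 arrays, 2 of which share a group, and any genes that differ between the groups alike will rank near each other.

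**Figure D3:**
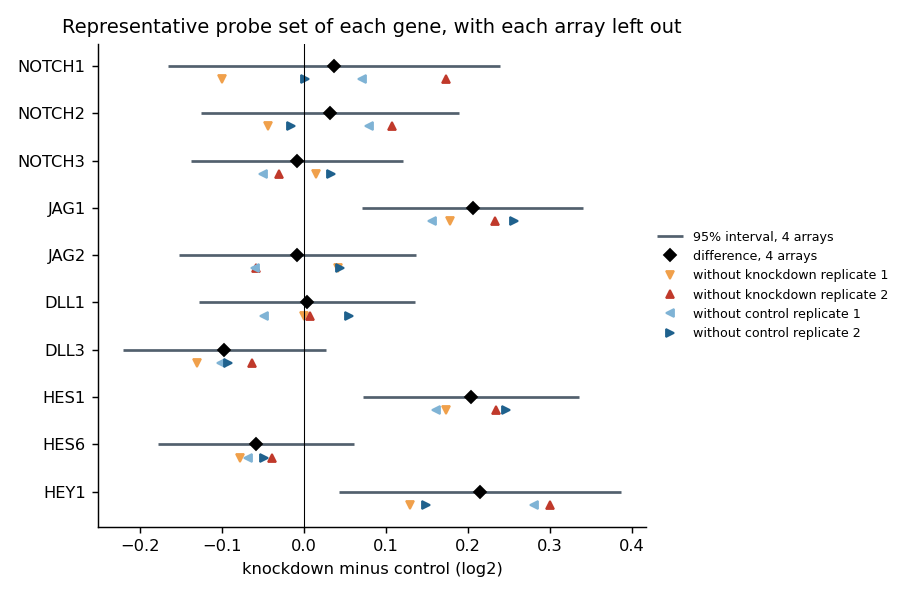
Knockdown minus control (x axis, log2) for the brightest probe set of each of the 10 genes, with the 95% confidence interval from 4 arrays (lines) and the value with each array left out (triangles). JAG1 (0.16 to 0.26), HES1 (0.16 to 0.25) and HEY1 (0.13 to 0.30) stay above 0 with any array left out, and DLL3 and HES6 stay below it, whereas all 3 receptors, JAG2 and DLL1 fall on either side.

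The count of 6 probe sets at an unadjusted p under 0.05 depended on single arrays. Without control replicate 1 it was 3, all higher, beside 5.16% of all probe sets. Without knockdown replicate 1 there were 3 higher, from JAG1 and HES1, and 3 lower, from NOTCH1 (223508_at, -0.16) and NOTCH2 (202445_s_at, -0.22, and 210756_s_at, -0.16), beside 7.93%. Without knockdown replicate 2 there were 8 higher and 0 lower, beside 12.4%, and without control replicate 2 there were 5 higher and 0 lower, beside 5.3%.

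Other genes of the pathway were taken from a list of 64 names, of which 57 had a probe set assigned to that gene alone. Of these 57 genes, each at its brightest probe set, 0 passed over all probe sets (limma, smallest adjusted p = 0.603) and 9 had an unadjusted p under 0.05, 1 above control and 8 below, beside 7.96% of all genes (2.39% higher and 5.57% lower). In all, 20 stood above and 36 below control, with a median of -0.022, against -0.0094 over all genes. Over all 19775 genes, 8768 stood above and 10959 below control. The signal of 47 of the 57 was above the array median on all arrays.

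**Figure D4:**
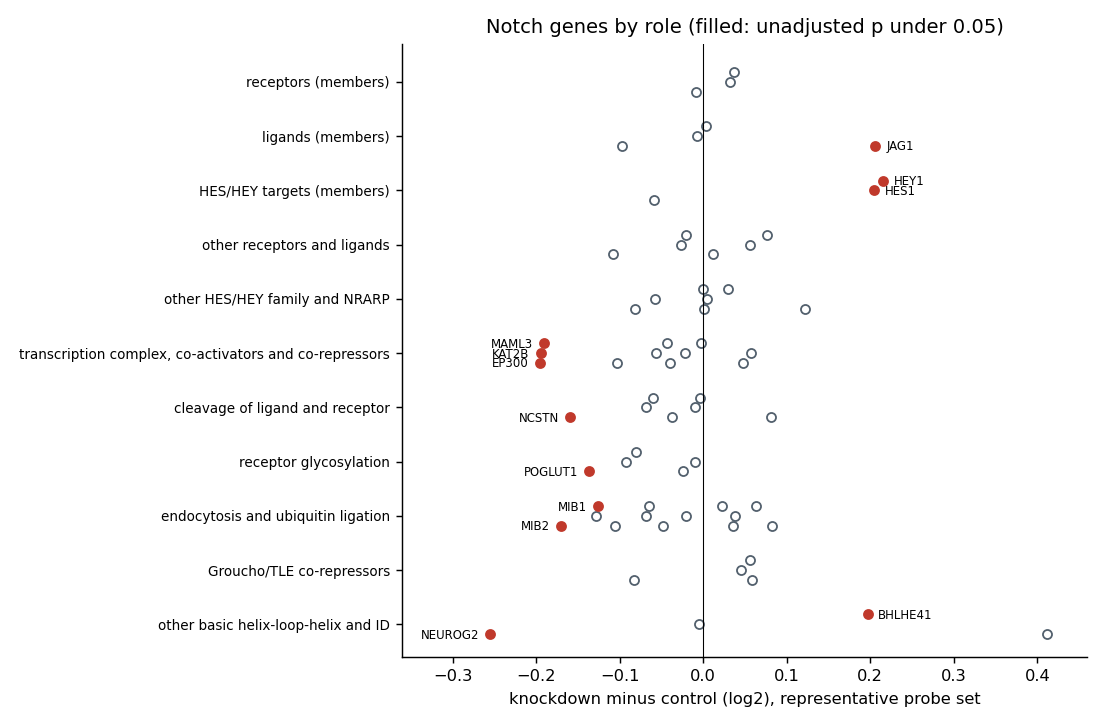
Knockdown minus control (x axis, log2) at the brightest probe set of each gene, for the 10 members and the 57 other pathway genes, by role (rows). Filled and named points have an unadjusted p under 0.05: JAG1, HES1, HEY1 and BHLHE41 above 0 and 8 genes below it, 3 of them in the transcription complex.

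Of 11 genes of the transcription complex and its co-factors, 3 had an unadjusted p under 0.05, all below control, beside 5.57% of all genes. In all, 9 of the 11 stood below control (median -0.044), beside 10959 of 19775 genes, each at its brightest probe set. EP300, a histone acetyltransferase that works as a co-activator, read 8.40 and 8.42 in knockdown and 8.65 and 8.55 in control cells (-0.20 ± 0.057, SE; limma adjusted p = 0.603). KAT2B, an acetyltransferase that also joins the Notch complex, read 8.18 and 8.25 against 8.37 and 8.45 (-0.19). MAML3, a Mastermind co-activator, read 9.90 and 9.99 against 10.18 and 10.09 (-0.19), and its other probe sets differed by -0.15 and, with overlap, -0.022. At the brightest probe set the groups did not overlap for 5 of the 11 genes, all with knockdown below, beside 24.2% of all genes. The 3 genes named here are among them, which adds no support because they were named for their small p. The second probe set of EP300 overlapped, at -0.021. At the brightest probe set RBPJ itself differed by -0.040, MAML1 by -0.022 and MAML2 by 0.048, with the groups overlapping for RBPJ and MAML2. Of the 3 RBPJ probe sets, 1 stood above and 2 below control. Of the dimmer ones, 1 had an unadjusted p under 0.05, beside 7.83% of all probe sets.

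Of 7 genes for cleavage of receptor and ligand, 6 stood below control (median -0.037). Over all genes, 10959 of 19775 stood below control, the share to set beside each such count in this paragraph. NCSTN, the nicastrin subunit of gamma-secretase, read 7.78 and 7.82 in knockdown and 7.98 and 7.94 in control cells, -0.16 ± 0.052 (SE; limma adjusted p = 0.603), although its second, dimmer probe set was above control. ADAM10, the metalloprotease that makes the first cut after ligand binding, differed by -0.037 with overlap. All 5 glycosylation genes were below control at the brightest probe set (median -0.081), among them POGLUT1, which glucosylates Notch (-0.14). The groups overlapped for LFNG (-0.025) and POFUT1 (-0.010). Over all probe sets of a gene, 2 of 3 stood above control for MFNG, and 1 of 2 for LFNG and for POFUT1. Of 13 genes for endocytosis and ubiquitin ligation, 8 were below control (median -0.049). The 2 at an unadjusted p under 0.05, beside 5.57% of all genes in this direction, were MIB2 (-0.17) and MIB1 (-0.13). Both are ligases that act on ligands in the sending cell. Of 5 MIB2 probe sets, 2 had an unadjusted p under 0.05, both below control, beside 4.12% of all probe sets in this direction. The others, 241377_s_at, 241378_at and 241541_at, overlapped, at 0.0056, -0.026 and 0.020. Of 4 MIB1 probe sets, 3 had an unadjusted p under 0.05, all below control, beside the same share, and 224725_at overlapped at -0.037. The second POGLUT1 probe set was at -0.056. MIB2 was at -0.092 without knockdown replicate 1, and POGLUT1 at -0.084 without control replicate 2.

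Of 7 other HES and HEY family genes measured, including NRARP, a feedback target of Notch, 0 had an unadjusted p under 0.05 (median 0.0010). HES5, a HES gene of neural progenitors, read 6.28 and 6.26 in knockdown and 6.10 and 6.19 in control cells, all below the array median, and differed by 0.12 ± 0.056 (SE; 95% confidence interval -0.0079 to 0.25). NRARP differed by 0.030, HES4 by -0.058 and HEYL by 0.0010. Of the other receptors and ligands, 3 of 6 stood above and 3 below control, and DLK1, a Delta-like protein of chromaffin-type cells, was at -0.11. Of 4 TLE co-repressor genes, partners of HES proteins, 3 were above control at the brightest probe set (median 0.050), beside 8768 of 19775 genes. None of these brightest TLE probe sets had an unadjusted p under 0.05. TLE4 differed by 0.055 there, but all 5 of its probe sets stood above control. Of these, 3 dimmer ones had an unadjusted p under 0.05, at 0.44, 0.20 and 0.19, beside 3.72% of all probe sets in this direction. These 3 are not independent and were named after their values were seen. The first of these, 235765_at, read 8.79 and 8.63 in knockdown and 8.33 and 8.21 in control cells (limma adjusted p = 0.477).

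Among the other basic helix-loop-helix and ID genes, the proneural gene NEUROG2 had the smallest p of the list. It read 6.35 and 6.47 in knockdown and 6.60 and 6.72 in control cells, near the array median, and differed by -0.26 ± 0.066 (SE; limma adjusted p = 0.603). Its 1 probe set showed no overlap between the groups, which adds no support because the gene was named for its small p. BHLHE41, a repressor related to the HES family and part of the circadian clock, read 6.85 and 6.66 against 6.55 and 6.56 and was the gene of the list above control at an unadjusted p under 0.05 (0.20 ± 0.069, SE; limma adjusted p = 0.611), with 3 of its 4 probe sets above control. It was at 0.10 without knockdown replicate 1. ID4, an inhibitor of helix-loop-helix factors, had the largest difference of the list, 0.41, but rested on knockdown replicate 1: it read 10.59 and 9.84 against 9.95 and 9.65, and without that array it was at 0.037. The median difference of the mesenchymal markers on knockdown replicate 1, 0.32, is given beside it; its part was not tested.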

How the data were processed

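The table deposited by the authors holds log2 values, 1 for each probe set on each array. The submitters' processing notes name RMA, a robust multi-array average that corrects background, equalises the arrays and combines probes, and R 3.0.1; no settings are given. No detection call or scan date was used, and the number of arrays limits the precision. Of 54675 probe sets, 62 AFFX controls were left out. Genes were named through the platform annotation, only where a probe set has 1 gene (41091; 1801 had several and 11721 were not listed); 41037 of the 41091 matched a current RefSeq gene identifier. Each gene is represented by its brightest probe set, by the mean of the 4 arrays.

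Knockdown and control (2 arrays each) were compared in limma 3.58.1 under R 4.3.3 with lmFit and eBayes at their defaults, with no covariate. P-values are two-sided and Benjamini-Hochberg adjusted over 54613 probe sets, with a threshold of 0.05. Differences are log2, knockdown minus control, and intervals are 95%. Sequences and figures used Python 3.11.15 and matplotlib 3.10.9. The test was checked on simulated data, with added changes larger than any Notch difference reported here. Recovery of changes as small as the Notch differences was not checked. Members and lists were chosen with earlier results of these data known. Named genes were the 10 members, TSPAN8, the 6 genes of the pathway list with the smallest p and the 3 genes nearest in profile to the member with the smallest p; other pathway genes were named after their values were seen, for their role. Alternatives were quantile normalization applied again, centring on the median, a filter on dim probe sets, array weights, a trended and robust variance, a block for the replicate number, other probe set rules, an unadjusted threshold and each array left out.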

Additional observations from a re-analysis of the deposited data

How the results depend on the processing

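With the replicate number as a block, TSPAN8 was at -1.27 with a limma adjusted p of 0.163 and 0 probe sets passed; 5 Notch probe sets then had an unadjusted p under 0.05. The labels do not pair the arrays, and deviations of equal numbers correlated at 0.051 over all probe sets, from 2 pairs. With each array left out in turn, TSPAN8 ranged from -1.32 to -1.22, the number of probe sets past the threshold from 1 to 1026 (25 without knockdown replicate 1), that of Notch probe sets from 0 to 1 and that of other pathway genes from 0 to 4. An unadjusted p under 0.05 was met by 4278 probe sets, 6 Notch probe sets and 9 pathway genes. With single arrays left out, alternatives added after the data were seen, the last 2 counts ranged from 3 to 8 and from 3 to 12. Without control replicate 1 they were 3 and 5, and without knockdown replicate 1 the pathway count was 3. Without _x_at and _s_at probe sets only 6 Notch probe sets remained and 0 had an unadjusted p under 0.05; NOTCH2, NOTCH3, JAG1, DLL1 and DLL3 then gave no value, and DLL1 gave none above the median signal. The difference turned for NOTCH1 (-0.031) and NOTCH2 (-0.024) with the mean of all probe sets, and for DLL1 with a second quantile normalization (-0.011) and median centring (-0.010). With an array left out, NOTCH1 ranged from -0.10 to 0.17, NOTCH2 from -0.043 to 0.11, NOTCH3 from -0.049 to 0.033, JAG2 from -0.060 to 0.044 and DLL1 from -0.048 to 0.055. The cause was not tested. JAG1, HES1, HEY1, DLL3 and HES6 kept their direction under every alternative that gave a value. Their size moved: JAG1 was at 0.076 with the mean of all its probe sets (0.21 at the brightest), and HES1 at 0.072 without _x_at and _s_at probe sets (0.20 at the brightest); DLL3 was at -0.035 with the mean of its probe sets and HES6 at -0.025 after a second quantile normalization. Near-background signal limits what can be seen of DLL1 and of the dim probe sets of JAG1 and HES1.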
